A study of Mus musculus with 8 samples.

Results

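The MAP kinase phosphatases Dusp1, Dusp2, Dusp4, Dusp5, Dusp6 and Dusp16, the Sproutys Spry1, Spry2 and Spry4, and the Sprouty relative Spred1 were followed in lymphatic endothelial cells of inflamed and untreated mouse ear skin. These 10 genes were chosen by name. They were read from the 22 probe sets whose platform annotation names 1 of them and no other gene, among 34945 probe sets naming 1 gene and 18193 genes in all. Inflamed samples came from female FVB mice sensitised with 2% oxazolone, a contact allergen, and challenged with 1% oxazolone after 5 days, 10 µl on each side of the ears. Cells were collected 24 hours later. Untreated samples came from female FVB mice labelled as healthy and untreated, with no vehicle stated. Each group held 4 samples, each pooled from 3 mice and sorted as CD31+ podoplanin+ CD45- cells. The samples formed 4 pairs of 1 inflamed and 1 untreated sample that shared their day of sorting and RNA extraction, at 8 to 10 weeks of age. Tissue was digested with collagenase before the sort in both groups.

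MAP kinase cascades carry signals from growth factor and cytokine receptors to the nucleus, and the genes they switch on include their own inhibitors. The dual-specificity phosphatases remove phosphate from the activation loop of the MAP kinases ERK, p38 and JNK. Sprouty and Spred proteins act further upstream, between receptor tyrosine kinases, Ras and Raf. In lymphatic endothelium the main input to ERK is VEGF receptor 3, the product of Flt4, and in mice Spred proteins restrain this receptor during lymphatic development.

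The values are MAS5 signals, one per probe set and array, used here on the log2 scale, so that a difference of 1 is a 2-fold change. Arrays had mean signals of 126.2 to 160.4. Median log2 signals were 3.27 to 3.44 in inflamed and 3.56 to 3.74 in untreated samples. The 3′ probe set of Gapdh exceeded its 5′ probe set, a sign of RNA quality and labelling, by 2.58 to 3.30 on the log2 scale in inflamed and 3.40 to 4.16 in untreated samples, lower in 4 of 4 pairs. Neither the medians nor the Gapdh values overlapped between the groups, and their part in the results below was not tested. The same measure for Actb overlapped, at -0.12 to -0.01 in inflamed and -0.15 to -0.00 in untreated samples. A background ceiling was taken on each array as the 95th percentile of unspiked bacterial control probe sets, and it lay between 2.53 and 3.31. The labelled cell type was borne out by its markers: Prox1, the lymphatic master regulator, averaged 9.73 in inflamed and 11.17 in untreated samples, and Pdpn averaged 12.00 and 11.44. Inflamed replicate 1 stood apart with the lowest Prox1, at 7.79. Ptprc, the gene of CD45, was above the ceiling on 3 of 4 inflamed and 0 of 4 untreated arrays. The mean level of 6 neutrophil markers was 5.44 to 6.56 in inflamed and 0.85 to 2.20 in untreated samples, and that of 9 monocyte and macrophage markers was 4.25 to 6.03 and 1.56 to 3.32. In each of these lists 3 markers were under the ceiling on every untreated array, so the untreated means rest in part on background. The macrophage markers Adgre1 and Csf1r were lower in 3 of 4 pairs. The mean of 7 fibroblast markers was 8.59 to 10.61 in inflamed and 7.59 to 9.69 in untreated samples, higher in 4 of 4 pairs. The mean of 5 keratinocyte markers was 2.11 to 4.59 in inflamed and 6.05 to 7.96 in untreated samples, and that of 7 lymphatic endothelial markers was 10.24 to 11.48 and 11.41 to 11.82, both lower in 4 of 4 pairs. The part of these other cells in the results below was not tested, and in sorted bulk samples more or fewer cells of a type and more or less RNA per cell cannot be told apart.

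None of the feedback genes passed the test between inflamed and untreated cells. Of the 10 genes, 9 were bright enough to be tested (mean log2 signal of at least 3.30), and 0 were higher and 0 lower at an adjusted p under 0.05 in limma with the pair as a block. Over all 10843 genes tested, 6.94% passed by the same rule, 3.91% higher and 3.02% lower. That is 424 higher and 328 lower genes, and centring on array medians gave 719 and 227. At an unadjusted p under 0.05, 1 of the 9 was higher (Spred1) and 1 lower (Spry1), against 22% of all genes, 10.5% higher and 11.5% lower. The inflamed and untreated arrays did not overlap for these same 2 of 9 genes, against 13.1% of all genes, 6.3% with inflamed arrays higher and 6.84% with them lower. The median difference of the 9 was -0.14, beside -0.09 over all genes tested.

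**Figure D1:**
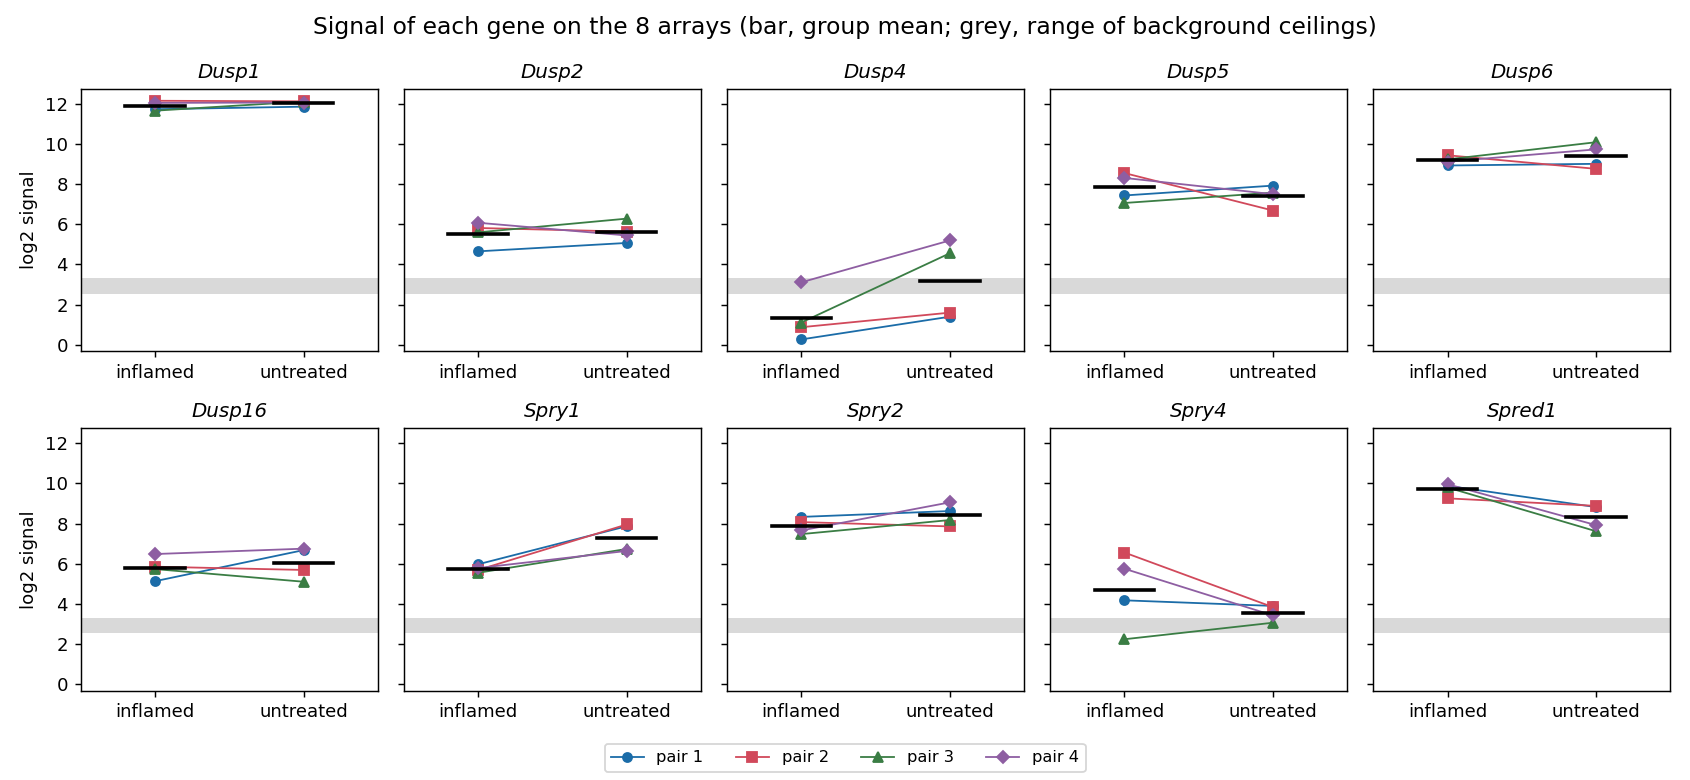
Log2 signal (vertical axis) of the probe set representing each of the 10 genes on the 4 inflamed and 4 untreated arrays. Lines join the samples of a pair, bars are group means, and the grey band is the range of background ceilings, 2.53 to 3.31. The groups are apart for Spry1 and Spred1, and Dusp4 lies mostly in or under the band.

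The 250 bases before a RefSeq start of 8 of the 10 genes were searched on both strands for 5 motifs known from genes induced by MAP kinases, cAMP and NF-kB. The motifs were the cAMP response element TGACGTCA, the AP-1 site TGANTCA, the ETS site CCGGAAG, the CArG box bound by serum response factor, and the NF-kB site. The windows of Dusp1 and Dusp5 held matches, printed in capitals below. Those of Spry1 and Spred1, the genes with the largest tested differences of either sign and non-overlapping groups, held none of these letters and are shown for comparison. The sequences are from RefSeq, mouse build GRCm38.p6, and run 5′ to 3′ towards the gene.
Dusp1, chr17:26508473-26508722, minus strand: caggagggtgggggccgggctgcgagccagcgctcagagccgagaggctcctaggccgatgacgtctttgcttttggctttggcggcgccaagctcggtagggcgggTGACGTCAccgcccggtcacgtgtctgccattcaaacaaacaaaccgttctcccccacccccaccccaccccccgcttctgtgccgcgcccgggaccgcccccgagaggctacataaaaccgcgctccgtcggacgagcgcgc
Dusp5, chr19:53528895-53529144, plus strand: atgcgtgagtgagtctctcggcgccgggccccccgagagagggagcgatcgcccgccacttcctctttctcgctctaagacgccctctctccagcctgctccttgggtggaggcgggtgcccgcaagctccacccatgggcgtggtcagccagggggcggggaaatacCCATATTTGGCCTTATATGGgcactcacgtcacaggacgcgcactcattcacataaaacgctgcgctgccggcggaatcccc
Spry1, chr3:37639697-37639946, plus strand: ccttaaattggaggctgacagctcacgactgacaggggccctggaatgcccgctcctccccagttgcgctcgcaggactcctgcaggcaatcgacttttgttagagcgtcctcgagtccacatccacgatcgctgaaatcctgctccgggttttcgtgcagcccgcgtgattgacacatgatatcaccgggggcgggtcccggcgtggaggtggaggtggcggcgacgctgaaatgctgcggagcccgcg
Spred1, chr2:117120821-117121070, plus strand: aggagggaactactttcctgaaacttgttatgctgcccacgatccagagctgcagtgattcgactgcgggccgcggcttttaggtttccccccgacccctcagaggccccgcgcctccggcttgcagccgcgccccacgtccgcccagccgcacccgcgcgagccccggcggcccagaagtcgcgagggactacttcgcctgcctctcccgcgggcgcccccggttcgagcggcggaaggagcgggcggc
Dusp1 held 1 cAMP response element, at positions -143 to -136 from the start, an element found in 1.55% of the 32851 windows. Dusp5 held 2 CArG boxes, CCATATTTGG at -82 to -73 and CCTTATATGG at -72 to -63. Such a box was found in 1.47% of windows. The AP-1, ETS and NF-kB sites were found in 6.75%, 6.91% and 7.25% of windows. The share of windows holding any of the 5 motifs was not counted, so the number of matching genes has no background beside it. The windows of Dusp2, Dusp6, Dusp16 and Spry2 held no match to the 5 motifs either. The Dusp16 window, chr6:134792629-134792878 on the minus strand, lies inside the gene's RefSeq span, which runs from 134715468 to 134807063. The bases before the outermost start of Dusp16 were therefore not searched. A match describes letters only, and no factor was measured.

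Among the nuclear phosphatases, Dusp1, an immediate early gene whose product acts mainly on p38 and JNK, was bright in every sample. Its log2 signals were 11.74, 12.16, 11.67 and 12.05 in inflamed replicates 1 to 4, against 11.87, 12.13, 12.12 and 12.07 in untreated replicates 1 to 4. The groups overlapped, and 3 of 4 pairs were lower. The difference was -0.14 ± 0.12 (SE), with a 95% interval of -0.42 to 0.13, and did not pass (limma adjusted p = 0.542). This is the narrowest interval of the 10 genes in this fit. Quantile and cyclic loess normalization gave differences of -0.44 and -0.46, past its lower end. Neither passed (limma adjusted p = 0.0683 and 0.0666). Median centring, which moves the median difference of all genes from -0.09 to 0.22, turned the sign to 0.16. It also turned those of Dusp2, Dusp6 and Dusp16, to 0.23, 0.09 and 0.05.

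Dusp2, known as PAC1 from activated lymphocytes, gave 4.65, 5.82, 5.60 and 6.08 in inflamed and 5.07, 5.64, 6.28 and 5.45 in untreated samples. It was higher in 2 and lower in 2 pairs, with a difference of -0.07 ± 0.62 (SE; limma adjusted p = 0.965). Its interval, -1.47 to 1.32, leaves room for a change of more than 2-fold either way. The 6 T cell markers on the array averaged 2.56 in inflamed and 2.84 in untreated samples. By array their mean was above that array's ceiling in inflamed replicates 3 and 4 (3.30 and 3.38) and untreated replicate 2 (2.95). It was under the ceiling on the other arrays. The part of T cells in the Dusp2 signal was not tested.

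Dusp5, an ERK-directed nuclear phosphatase, gave 7.44, 8.56, 7.06 and 8.31 in inflamed and 7.93, 6.69, 7.58 and 7.50 in untreated samples. The pairs disagreed: 2 were higher, pair 2 by 1.87, and 2 were lower. The mean difference of 0.42 ± 0.51 (SE; limma adjusted p = 0.696) became -0.06 without pair 2.

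Dusp4, another nuclear phosphatase, was the 1 gene that did not pass the filter. Its signals were 0.26, 0.87, 1.10 and 3.11 in inflamed and 1.40, 1.60, 4.56 and 5.20 in untreated samples. Only 1 of 4 inflamed and 2 of 4 untreated arrays were above the ceiling. All 4 pairs were lower in inflamed samples, yet the groups overlapped, and in the fit without the filter the difference of -1.85 ± 0.83 (SE) did not pass (limma adjusted p = 0.297). Most of these values lie under background, so the size cannot be read.

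Dusp6, the cytoplasmic ERK phosphatase and a common readout of ERK activity, was also well above background on all arrays. It gave 8.93, 9.44, 9.24 and 9.13 in inflamed and 9.02, 8.77, 10.09 and 9.74 in untreated samples. The inflamed values lay inside the untreated range. The difference was -0.22 ± 0.32 (SE; 95% interval -0.93 to 0.50; limma adjusted p = 0.747). A rise beyond 0.50 on the log2 scale lies outside this interval, which holds for the deposited scaling only. Under median centring the difference was 0.09, and the interval there is not given.

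Dusp16, also called MKP-7 and known to act on JNK and p38, had 2 probe sets. The brighter gave 5.12, 5.85, 5.73 and 6.48 in inflamed and 6.67, 5.69, 5.10 and 6.75 in untreated samples, higher in 2 and lower in 2 pairs. The difference was -0.26 ± 0.62 (SE; limma adjusted p = 0.863). The dimmer, 1440615_at, was under the ceiling on all 4 inflamed arrays and above it on 3 of 4 untreated arrays. Its measured means were 1.48 in inflamed and 3.45 in untreated samples. With the inflamed values raised to their ceilings, the signal would be 1.35-fold lower in inflamed samples. Untreated replicate 3 was also under its ceiling, at 1.40, so this is not a bound and the size cannot be read. In the fit of every probe set without the filter the dimmer probe set did not pass (limma adjusted p = 0.377). The mean of both Dusp16 probe sets differed by -1.11.

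**Figure D2:**
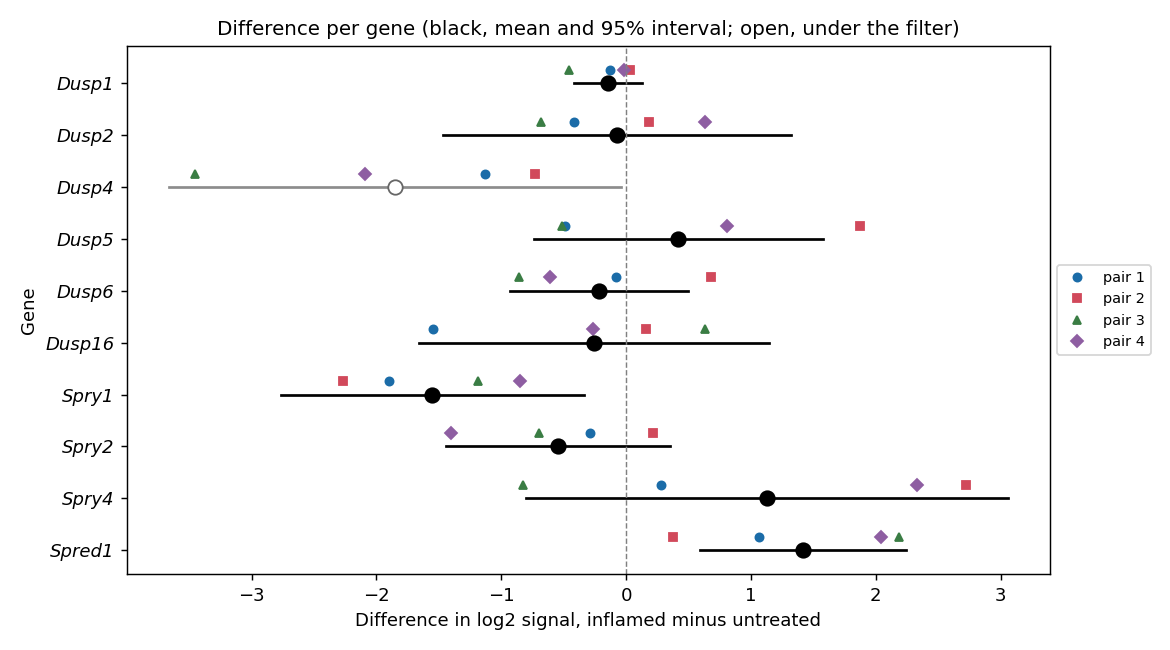
Difference in log2 signal, inflamed minus untreated (horizontal axis), for each of the 10 genes. Black points and lines are the mean and its moderated 95% interval, coloured marks the 4 pairs, and the open point, Dusp4, comes from the fit without the filter. The tested intervals of Spry1 (-2.76 to -0.34) and Spred1 (0.59 to 2.24) lie to one side of 0, as does that of Dusp4.

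Among the probe sets that represent the Sproutys, that of Spry1 had the largest difference. It gave 5.97, 5.68, 5.54 and 5.78 in inflamed against 7.87, 7.95, 6.73 and 6.63 in untreated samples. The highest inflamed value lay under the lowest untreated one, and the inflamed samples were close together (SD 0.18, against 0.71 in untreated samples, n = 4 each). The difference was -1.55 ± 0.54 (SE), a signal 2.93-fold lower, with unadjusted p = 0.0175 and limma adjusted p = 0.128, so it did not pass over all genes. It kept its sign under all 14 alternatives and passed under 0 of them, with adjusted p between 0.0638 and 0.316.

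Spry2, the Sprouty best known for blocking growth factor signals to Ras in endothelium, had 2 probe sets. The brighter gave 8.33, 8.07, 7.47 and 7.65 in inflamed and 8.62, 7.86, 8.17 and 9.05 in untreated samples. It was lower in 3 of 4 pairs, the groups overlapped, and the difference of -0.55 ± 0.40 (SE) did not pass (limma adjusted p = 0.478). The second probe set, 1421656_at, differed by -1.62, but its pairs ran between -4.52 and 3.71, the one positive value being pair 1. The mean of both Spry2 probe sets differed by -1.08.

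Spry4, a Sprouty induced by ERK signalling, was dim. Its brightest probe set gave 4.17, 6.55, 2.23 and 5.75 in inflamed and 3.89, 3.83, 3.06 and 3.42 in untreated samples. It was above the ceiling on 3 of 4 arrays of each group and higher in 3 of 4 pairs. The inflamed samples were far more spread (SD 1.91, against 0.39 in untreated samples), and the difference of 1.13 ± 0.86 (SE) did not pass (limma adjusted p = 0.495). The other 3 probe sets were under the filter. Of these, 1445669_at was higher in all 4 pairs, with means of 4.10 in inflamed and 1.89 in untreated samples, and was above the ceiling on 3 of 4 inflamed and 1 of 4 untreated arrays.

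Spred1, which recruits the Ras inhibitor neurofibromin to the membrane, had the smallest p of the 10 genes. The probe set that represents it gave 9.88, 9.25, 9.80 and 9.96 in inflamed against 8.82, 8.88, 7.61 and 7.92 in untreated samples. The lowest inflamed value lay above the highest untreated one, and all 4 pairs were higher, by 0.38 to 2.18. The difference was 1.42 ± 0.37 (SE), 2.67-fold, with limma adjusted p = 0.0510, just over the threshold. It was past the threshold under 6 of 14 alternatives: adjusted p was 0.0367 without the pair block, 0.0257 with a random pair block, 0.0230 under median centring, 0.0401 with 16 added before log2, 0.0462 with the stricter filter and 0.0452 without pair 2. Without pair 1, pair 3 or pair 4 it was 0.123, 0.193 and 0.141, and without the intensity trend 0.189. The mean of its 8 probe sets differed by 0.62 (limma adjusted p = 0.365).

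The 8 Spred1 probe sets did not move alike, and all 8 passed the filter. Their mean difference was positive for 7 and negative for 1, and 4 were higher and 1 was lower in all 4 pairs. Those 4 were the 3 designed from the expressed sequence BQ044290, with differences of 1.42, 1.43 and 1.03, and 1445228_at with 1.49. The share of all probe sets that were higher or lower in all 4 pairs was not counted. Both probe sets designed from AK017680 were nearer 0, at 0.19 and 0.50. The 2 designed from AI450584 differed by 0.57 for 1460116_s_at and -1.63 for 1443652_x_at. The probe set 1443652_x_at gave 3.81, 4.13, 3.75 and 4.61 in inflamed against 5.73, 5.77, 6.15 and 5.17 in untreated samples, with no overlap. With every probe set tested on its own, 0 Spred1 probe sets passed, and the smallest adjusted p over probe sets was 0.0503, for 1423160_at. Among all 19626 probe sets tested, 3.13% were higher and 2.59% lower. The suffixes _s_at and _x_at mark probe sets that may also bind other transcripts, and which part of the transcript each probe set covers was not analysed here.

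**Figure D3:**
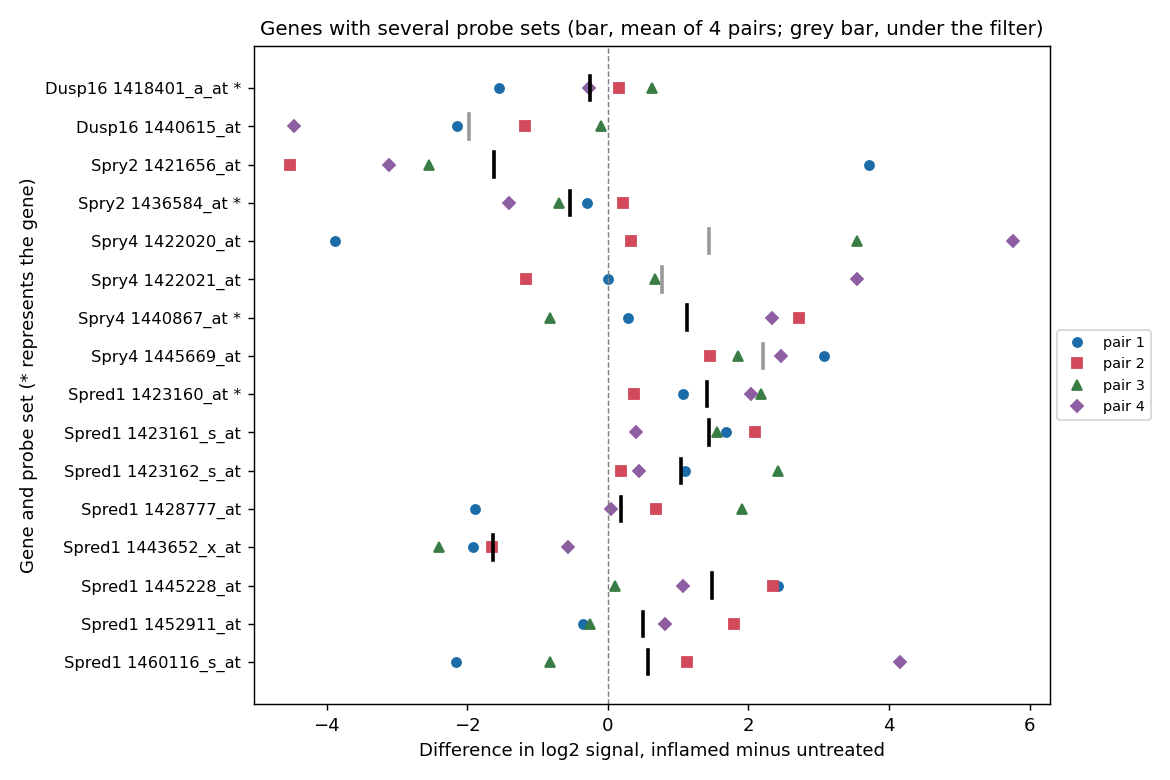
Difference in log2 signal, inflamed minus untreated (horizontal axis), for every probe set of the 4 genes with more than 1. Coloured marks are the 4 pairs, bars their mean, grey where the probe set is under the filter, and an asterisk marks the one representing the gene. The 3 Spred1 probe sets 1423160_at, 1423161_s_at and 1423162_s_at are above 0 in every pair, while 1443652_x_at is below 0 in every pair.

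The 3 tested genes whose log2 profile over the 8 arrays was most like that of Spred1, by Pearson's correlation, were S1pr2, a sphingosine-1-phosphate receptor (r = 0.98), the splicing factor Srsf2 (r = 0.98) and the metalloproteinase Mmp3 (r = 0.97). This is a description over 8 arrays that share the contrast between groups, and it was picked as the highest of all tested genes. Mmp3 gave 11.90, 10.88, 10.38 and 11.55 in inflamed against 6.15, 6.06, 0.56 and 3.11 in untreated samples. S1pr2 and Mmp3 were each above the ceiling on 2 of 4 untreated arrays, so their correlations rest in part on background.

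The rest of the pathway was read from 8 lists of genes. Of their 121 genes, 114 had a probe set of their own and 101 were tested, of which 4 were higher and 6 lower at an adjusted p under 0.05, beside 3.91% and 3.02% of all genes. Centring on array medians gave 7 higher and 4 lower, the fit without the intensity trend 1 and 0, and leaving out 1 of the 4 pairs 0 to 1 higher and 2 to 3 lower. Among 7 tested relatives of the 10 genes (other phosphatases and Spred2), 0 passed in limma in either direction and 0 had an unadjusted p under 0.05. Dusp22 differed by -1.41 ± 0.77 (SE), Dusp3 by -0.32 ± 0.21, Dusp10 by 1.01 ± 0.75 and Dusp19 by -1.25 ± 1.39. With the mean of probe sets Dusp3 differed by -0.97 and Dusp10 by 0.60. In the cascade from Ras to ERK, 0 of 15 tested genes passed in limma, and 1 higher and 2 lower had an unadjusted p under 0.05. These were the kinase gene Map2k2 (1.44 ± 0.53), the Raf family kinase gene Araf (-2.09 ± 0.71) and the adaptor gene Shc1 (-0.87 ± 0.32). With the mean of probe sets Map2k2 differed by 0.18 and Araf by -1.19. In that fit 1 gene of this list, none of those named in this paragraph, was lower at an adjusted p under 0.05. With every probe set tested on its own, the count lower was 1 in this list and 1 among the relatives. Sos2, an activator of Ras, differed by -1.10 ± 0.50.

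In the p38 and JNK cascades, 1 of 15 tested genes was lower and 0 higher. Map3k1, a kinase upstream of JNK, gave 6.49, 7.67, 8.05 and 6.69 in inflamed against 9.36, 9.63, 9.16 and 8.30 in untreated samples, without overlap, and fell by 1.89 on the log2 scale (SE 0.41; limma adjusted p = 0.0244). This call was lost without the intensity trend (adjusted p = 0.111), with the mean of probe sets (0.0513) and without pair 1, 2 or 3 (0.102, 0.0923 and 0.0592). Map2k6, a p38 kinase kinase, differed by -2.97 ± 0.83 (limma adjusted p = 0.0669), with 2 of 4 inflamed arrays above the ceiling, and passed with the mean of probe sets (0.0255). Mapk12 and Mapk9, a p38 and a JNK gene, differed by -1.17 ± 0.56 and -1.57 ± 0.80 and did not pass. Mapk9 differed by -0.55 with the mean of probe sets.

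Of 17 early genes induced by ERK, 2 were higher and 0 lower, with a median difference of 0.15. Quantile and cyclic loess normalization each gave 2 higher and 1 lower. Fosl1, the AP-1 subunit Fra-1, gave 5.88, 6.90, 4.87 and 6.61 in inflamed against 2.57, 4.25, 1.38 and 1.70 in untreated samples and rose by 3.59 ± 0.75 (SE; limma adjusted p = 0.0218). Only 1 of 4 untreated arrays was above the ceiling, so this size rests in part on background. Plaur, the urokinase receptor, gave 9.04, 10.63, 8.93 and 10.04 in inflamed against 8.24, 6.54, 7.04 and 6.93 in untreated samples and rose by 2.47 ± 0.52 (limma adjusted p = 0.0224). The Fosl1 call was lost when any 1 pair was left out (adjusted p 0.0617 to 0.0793), and that of Plaur without pair 2, 3 or 4 (0.0906, 0.0653 and 0.0658) and without the intensity trend (0.133). The means of the neutrophil, monocyte and fibroblast markers given above moved with both. Myc differed by 1.13 ± 0.31 and Ier2 by -1.58 ± 0.47, and neither passed (limma adjusted p = 0.0605 and 0.0800). Myc was past the threshold under 3 of 14 alternatives, with adjusted p of 0.0191 under median centring, 0.0425 with a random pair block and 0.0357 with the mean of probe sets.

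Of 16 receptor tyrosine kinases, 3 were lower and 0 higher. Kdr, the VEGF receptor 2 gene, gave 8.20, 9.11, 9.44 and 8.96 in inflamed against 10.36, 10.54, 10.36 and 11.29 in untreated samples. It fell by 1.71 (SE 0.29; limma adjusted p = 0.00852), and the angiopoietin receptor gene Tek fell by 1.47 (SE 0.37; adjusted p = 0.0460), a call lost without the pair block (0.0563) and under 7 further alternatives. Tie1, its relative, fell by 2.18 (SE 0.41; limma adjusted p = 0.0141). Pdgfra, a fibroblast receptor, differed by 1.57 ± 0.51 and did not pass. All 3 calls were lost without the intensity trend (limma adjusted p = 0.120, 0.133 and 0.0981 for Kdr, Tek and Tie1), that of Tie1 also without pair 1 or 4 (0.0608 and 0.0560) and that of Tek without any 1 pair (0.0989 to 0.143). The means of the lymphatic endothelial and of the keratinocyte markers given above were lower in the same samples. The lymphatic marker Pdpn was higher in 4 of 4 pairs.

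Of 11 tested ligands of these receptors, 2 were higher and 0 lower. Hbegf, an EGF receptor ligand, gave 8.84, 7.67, 7.81 and 7.30 in inflamed against 5.87, 6.29, 5.10 and 5.11 in untreated samples and rose by 2.31 ± 0.52 (SE; limma adjusted p = 0.0307). Angpt2, the angiopoietin that antagonises Tek in blood vessels, gave 9.50, 10.34, 10.47 and 10.18 in inflamed against 8.07, 9.05, 9.15 and 9.59 in untreated samples and rose by 1.16 ± 0.26 (limma adjusted p = 0.0287). The Angpt2 groups overlapped, and its call was lost without the pair block (adjusted p = 0.0817). The Hbegf call was lost without any 1 pair (adjusted p 0.0548 to 0.128) and that of Angpt2 without pair 1, 2 or 3 (0.100, 0.103 and 0.125) and with a random pair block (0.0526). Without the intensity trend both were lost (0.0782 for Hbegf and 0.177 for Angpt2). Vegfc, the ligand of VEGF receptor 3, differed by 2.77 ± 0.84 and Igf1 by 0.54 ± 0.28, and neither passed (limma adjusted p = 0.0874 and 0.303). With the mean of probe sets they differed by 1.11 and -0.05. Vegfc was at -0.82 in untreated replicate 3, under the ceiling, so the size of 2.77 rests in part on background. The means of the fibroblast, neutrophil and monocyte markers given above were higher in the same samples.

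Among 13 tested other inhibitors of receptor and Ras signalling, 1 was lower and 0 higher. Sulf2, a heparan sulfate sulfatase, fell by 1.59 (SE 0.39; limma adjusted p = 0.0403), a call lost without the pair block (0.0575), without the intensity trend (0.143), under median centring (0.0740), with the mean of probe sets (0.0539) and without any 1 pair (0.0516 to 0.147). Errfi1, an inhibitor of the EGF receptor, differed by 0.85 ± 0.24, Pebp1, which binds Raf, by 0.30 ± 0.09 and Lrig2 by -1.85 ± 0.55, and none of them passed (limma adjusted p = 0.0680, 0.0757 and 0.0826). With the mean of probe sets Errfi1 differed by 0.22, Pebp1 by 0.17 and Lrig2 by 0.50, and cyclic loess gave -0.07 for Pebp1. Under median centring Errfi1 and Pebp1 passed (0.0214 and 0.0136), and Pebp1 also with the stricter filter (0.0427). Of 7 Sprouty partners and regulators, 1 was lower and 0 higher. Cav1, the caveolin to which Sproutys bind, gave 9.91, 9.78, 10.11 and 9.50 in inflamed against 10.81, 11.20, 11.34 and 10.92 in untreated samples and fell by 1.24 (SE 0.19; limma adjusted p = 0.00571), a call lost without the intensity trend (0.151) and under no other alternative. Dyrk1a, Nedd4 and Siah2 differed by 0.63 ± 0.38, -0.32 ± 0.19 and 1.51 ± 0.91 and did not pass.

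**Figure D4:**
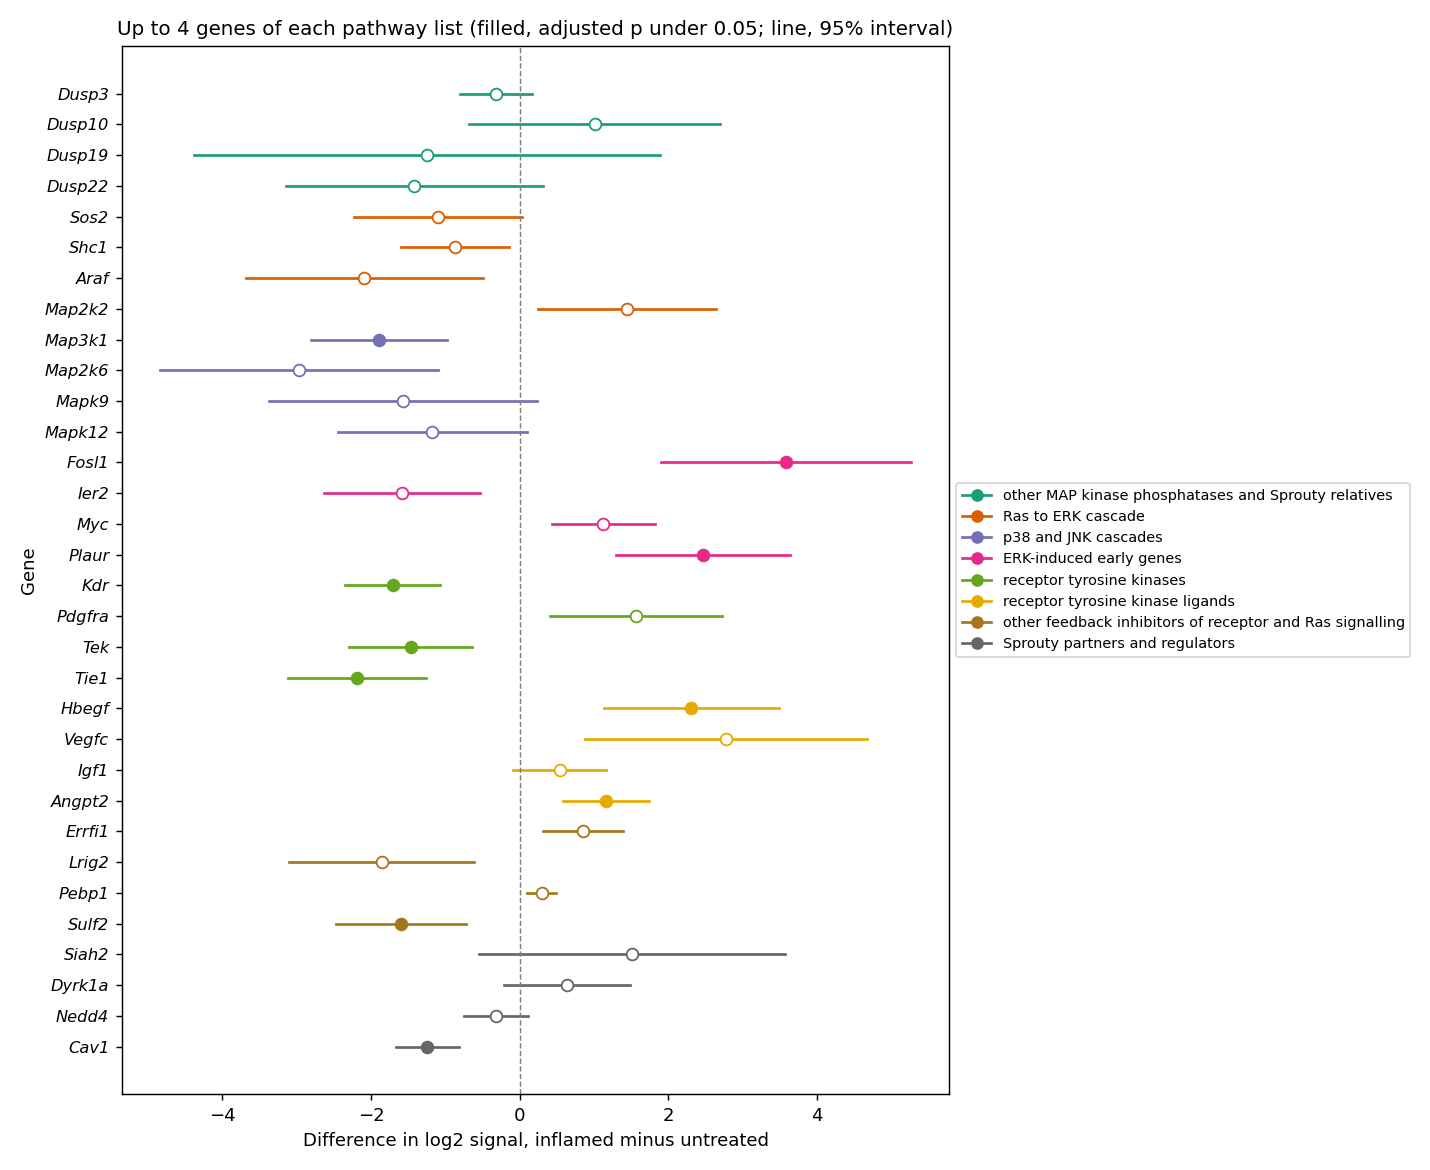
Difference in log2 signal, inflamed minus untreated (horizontal axis), of the 4 genes with the smallest p in each of the 8 pathway lists. Points are means over 4 pairs, lines moderated 95% intervals, colours the lists, and filled points have an adjusted p under 0.05. Filled points right of 0 are Fosl1, Plaur, Hbegf and Angpt2, and those left of 0 are Map3k1, Kdr, Tek, Tie1, Sulf2 and Cav1.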

How the data were processed

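The deposited table gives each probe set an intensity on every array, unlogged: MAS5 signals per the submitters' processing notes. Per the labels' protocols, total RNA of sorted cells was amplified isothermally into cDNA, biotin-labelled and hybridised. The sources used here do not give the version of MAS5, its scaling target or detection calls. The table held 45101 probe sets, 64 of them controls, and no 2 arrays were identical.

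Array medians of log2 signal spanned 0.47, lower on every inflamed than on every untreated array. This was under the limit of 0.5, so the authors' scaling was kept. Each gene was represented by the brightest probe set naming it alone, and genes with a mean log2 signal under 3.30 were left out. For the remaining 10843 genes, limma 3.58.1 under R 4.3.3 fitted group and pair as fixed terms (lmFit), eBayes moderated the spread along an intensity trend, and two-sided p-values were adjusted by Benjamini-Hochberg. Differences are inflamed minus untreated, and their SE and 95% intervals are moderated, with 3 residual degrees of freedom and a median of 6.27 prior ones. The pairing comes from the design text. Deviations from group means correlated across genes at 0.16, 0.00, 0.08 and 0.03 within pairs 1 to 4. P-values refer to pools of 3 mice. The number of arrays limits the precision. The script was tested on simulated data.

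The genes, lists and tests were chosen with earlier results of these data known. Named were the 10 genes, up to 4 genes with the smallest p per pathway list, 3 genes most like the one with the smallest p, and Prox1, Pecam1, Pdpn and Ptprc. Alternatives covered scaling, an added constant, the filter, the block, the trend, the probe set choice and leaving out each pair. Blood endothelial, B cell, mast cell, pericyte and keratinocyte markers averaged 6.80, 1.96, 1.96, 4.00 and 3.39 in inflamed and 7.11, 1.74, 2.73, 4.09 and 6.77 in untreated samples. Pecam1 averaged 9.78 in inflamed and 10.50 in untreated samples.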

Additional observations from a re-analysis of the deposited data

Results flagged for a closer look

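Of 44 groups of 4 values, 1 for each probe set of the 10 genes and each condition, 2 held a sample whose gap to the nearest other exceeded Dixon's 95% critical value, and chance gives about 1 in 20. Dusp16 probe set 1440615_at was at 1.40 in untreated replicate 3, under its ceiling, while the other untreated samples lay between 4.02 and 4.28. Spred1 probe set 1445228_at was at 2.01 in untreated replicate 2, while the other untreated samples lay between 4.12 and 4.40.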

How the results depend on the processing

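The count of the 10 feedback genes stayed at 0 lower under every alternative run. The count of higher genes was 1, Spred1 in each case, under median centring, with 16 added before log2, with the stricter filter (mean log2 signal of at least 5), without the pair block, with a random pair block and without pair 2, and 0 otherwise, so leaving out 1 pair gave 0 to 1. Over all genes, 424 were higher and 328 lower, or 719 and 227 after centring on array medians, 94 and 47 with no intensity trend, and 384 and 301 without the pair block. Leaving out 1 pair gave 208 to 306 higher and 126 to 198 lower. Of the pathway genes, 4 were higher and 6 lower, or 7 and 4 after centring on array medians, and 1 and 0 with no intensity trend. The pathway counts were 3 and 4 without the pair block. Leaving out 1 pair gave 0 to 1 higher and 2 to 3 lower. The cause of these shifts was not tested, beyond the smaller number of arrays where a pair was left out. None of the named genes that passed changed sign under any alternative run. Among named genes that did not pass, the sign of Dusp2 turned under all 3 scalings and without pair 1 or 3, those of Dusp1 and Dusp6 under median centring, that of Dusp16 under median centring and without pair 1, that of Dusp5 without pair 2, that of Dusp19 without pair 2 or 4, those of Igf1 and Lrig2 with the mean of probe sets, and that of Pebp1 under cyclic loess. Dusp4 was tested only in the fit without the filter. Signals near the ceiling limit what can be said of Dusp4, Spry4 and the dimmer Dusp16 probe set.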

Other observations

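Within the untreated samples, some of the 10 genes split between replicates 1 and 2 and replicates 3 and 4, not all in the same direction. Dusp1, Dusp2, Dusp5, Dusp16 and Spry2 did not split in this way. This was noticed in the data, it is given as values without a test, and the labels name no difference that matches it, since ages were 9, 8, 8 and 10 weeks. Spry1 was 7.87 and 7.95 in untreated replicates 1 and 2, and 6.73 and 6.63 in replicates 3 and 4. Spred1 was 8.82 and 8.88 in replicates 1 and 2, and 7.61 and 7.92 in replicates 3 and 4. Its probe set 1423161_s_at, at 7.93, 6.96, 7.59 and 7.91 in untreated replicates 1 to 4, did not split so. The dim Spry4 was 3.89 and 3.83 in replicates 1 and 2, and 3.06 and 3.42 in replicates 3 and 4. Dusp6 and Dusp4 were instead lower in replicates 1 and 2. Dusp6 was 9.02 and 8.77 in replicates 1 and 2, and 10.09 and 9.74 in replicates 3 and 4. Dusp4 was under background at 1.40 and 1.60 in replicates 1 and 2, and above it at 4.56 and 5.20 in replicates 3 and 4. In the inflamed samples Spry1 lay between 5.54 and 5.97 and Dusp6 between 8.93 and 9.44, so for these genes the spread was mostly among untreated samples.

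Egr1 and Fos, early genes induced by ERK, were bright in both groups. Egr1 averaged 12.33 ± 0.22 in inflamed and 12.45 ± 0.13 in untreated samples, and Fos 12.20 ± 0.19 and 12.31 ± 0.22 (SD, n = 4 each). With the deposited scaling neither difference passed in limma (adjusted p = 0.547 and 0.611). Under quantile and under cyclic loess normalization 1 early gene was lower, and which one is not given here. Egr1 and Fos, picked after their values were seen, stand beside Dusp1 at 11.90 ± 0.24 in inflamed and 12.05 ± 0.12 in untreated samples. Both groups went through the same digestion and sort, and the levels in undisturbed tissue were not measured.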
